A study of Mus musculus with 8 samples.

Results

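Cells hold reactive oxygen species and free iron in check with a set of linked systems, and 34 genes of those systems are described here in group 2 innate lymphoid cells (ILC2s) of visceral fat. They comprise the transcription factor NRF2 and its inhibitor, the thioredoxin system, the peroxiredoxins with sulfiredoxin, the glutathione system, the enzymes that remove superoxide and peroxide, and genes of heme, quinone and iron handling. The members were chosen by name, with earlier results of these data known. All 34 were found among the 39527 genes of the deposited table, none of them with a value below 0. ILC2s are tissue-resident lymphocytes that secrete type 2 cytokines. RNA was sequenced from cells sorted out of the epididymal visceral adipose tissue (VAT) of wild-type C57BL/6 male mice aged 14 weeks. High-fat diet had been fed for 8 weeks, from an age of 6 weeks, to the mice behind 4 libraries (H1 to H4), and normal diet to those behind 4 libraries (N1 to N4). Both groups share strain, sex, age and genotype, and the labels do not say whether a library is 1 animal or a pool, so the p-values cover only variation among these libraries, part or all of which may be technical.

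As background, NRF2 (gene Nfe2l2) is held in the cytoplasm and marked for destruction by KEAP1. When oxidants or electrophiles modify KEAP1, NRF2 accumulates and, paired with a small MAF protein, switches on genes that include Srxn1, Txnrd1, Gclc, Gclm, Slc7a11, Hmox1 and Nqo1. Peroxiredoxins destroy peroxide and are recharged by thioredoxin. Glutathione does the same work through glutathione peroxidases, and both systems draw their electrons from NADPH.

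Depth, as reads recovered from the deposited table, was 9005363 to 15752815 per library, with the fewest in H2, and 10763 to 13663 genes per library reached 1 FPKM (fragments relative to transcript length and library depth), with the most in H2. The 13 ILC2 markers each reached 1 FPKM in at least 1 library. They summed to 6705 to 7639 FPKM on high-fat diet against 8123 to 10268 FPKM on normal diet, but did not all fall. Il7r, Areg, Il17rb and Thy1 had log2 fold changes of 0.09 to 0.33, high-fat minus normal diet. The other ILC2 markers, which include Il1rl1 and Klrg1, had fold changes below 0, and of these Gata3, Il2ra and Il5 passed the test described below. Transcripts used as markers of other cells were present too. The 10 T cell markers summed to 814 to 1594 FPKM on high-fat diet and 768 to 1028 FPKM on normal diet. Most of this was Trbc1, Trbc2, Trac and Cd3g, at 70.4 to 740 FPKM. Cd3d, Cd3e, Cd4, Cd5, Cd8a and Cd8b1 were at 0 to 18.5 FPKM. Which cells these transcripts came from was not tested. Mast cell markers (5 genes) summed to 1616 FPKM in H2, to 4121 to 7721 FPKM in the other high-fat libraries and to 3675 to 7837 FPKM on normal diet. The 12 macrophage markers summed to 12.3 to 13.1 FPKM on high-fat diet against 8.59 to 9.99 FPKM on normal diet. The 10 endothelial markers summed to 21.6 to 48.4 FPKM on high-fat diet against 15.4 to 21.1 FPKM on normal diet, and neither sum overlapped. Single macrophage markers differed: C1qb and C1qc were higher in every high-fat library, Adgre1 was lower in every one, and the others overlapped. Of 3 tested macrophage markers 0 were called, and of 3 endothelial markers 1. Erythroid markers (7 genes) were highest in N4, at 4485 FPKM, and N3, at 2345 FPKM, against 46.5 to 377 FPKM in the other libraries. No list had a marker at 0 in all libraries.

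Of the 34 genes, 31 reached 1 FPKM in at least 4 libraries and were tested together with all other such genes, 11483 in all (limma on log2(FPKM + 1), p adjusted by Benjamini-Hochberg over all of them, threshold 0.05). Fold changes below are high-fat minus normal diet on that scale, where the added 1 shrinks the differences of weakly expressed genes. High-fat diet lowered 1 of the 31, Srxn1, raised 0 and left 30 without a call, and 17 of the 31 fold changes were below 0. Over all tested genes 1.88% were called lower and 0.975% higher, 2.86% in both directions, so 1 call in 31 is near the background. These calls were 112 higher and 216 lower genes, and under quantile normalization 226 and 204. The median log2 fold change of the 31 was -0.07 and that of all tested genes -0.02. At an unadjusted limma p under 0.05, 7 of the 31 were lower and 2 higher. Of all 11483 tested genes, 1259 were lower and 824 higher at that cut. In 7 of the 31, or 22.6%, every high-fat library lay below every normal-diet library, and in 0 of the 31 every one lay above; over all tested genes these shares were 6.76% and 4.31% (11.1% together). The 7 are Srxn1, Gpx4, Prdx1, Prdx2, Txn2, Tfrc and Nfe2l2, and 6 of them did not pass the test. In sorted cells measured in bulk, fewer cells of a type and less RNA per cell cannot be told apart.

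**Figure D1:**
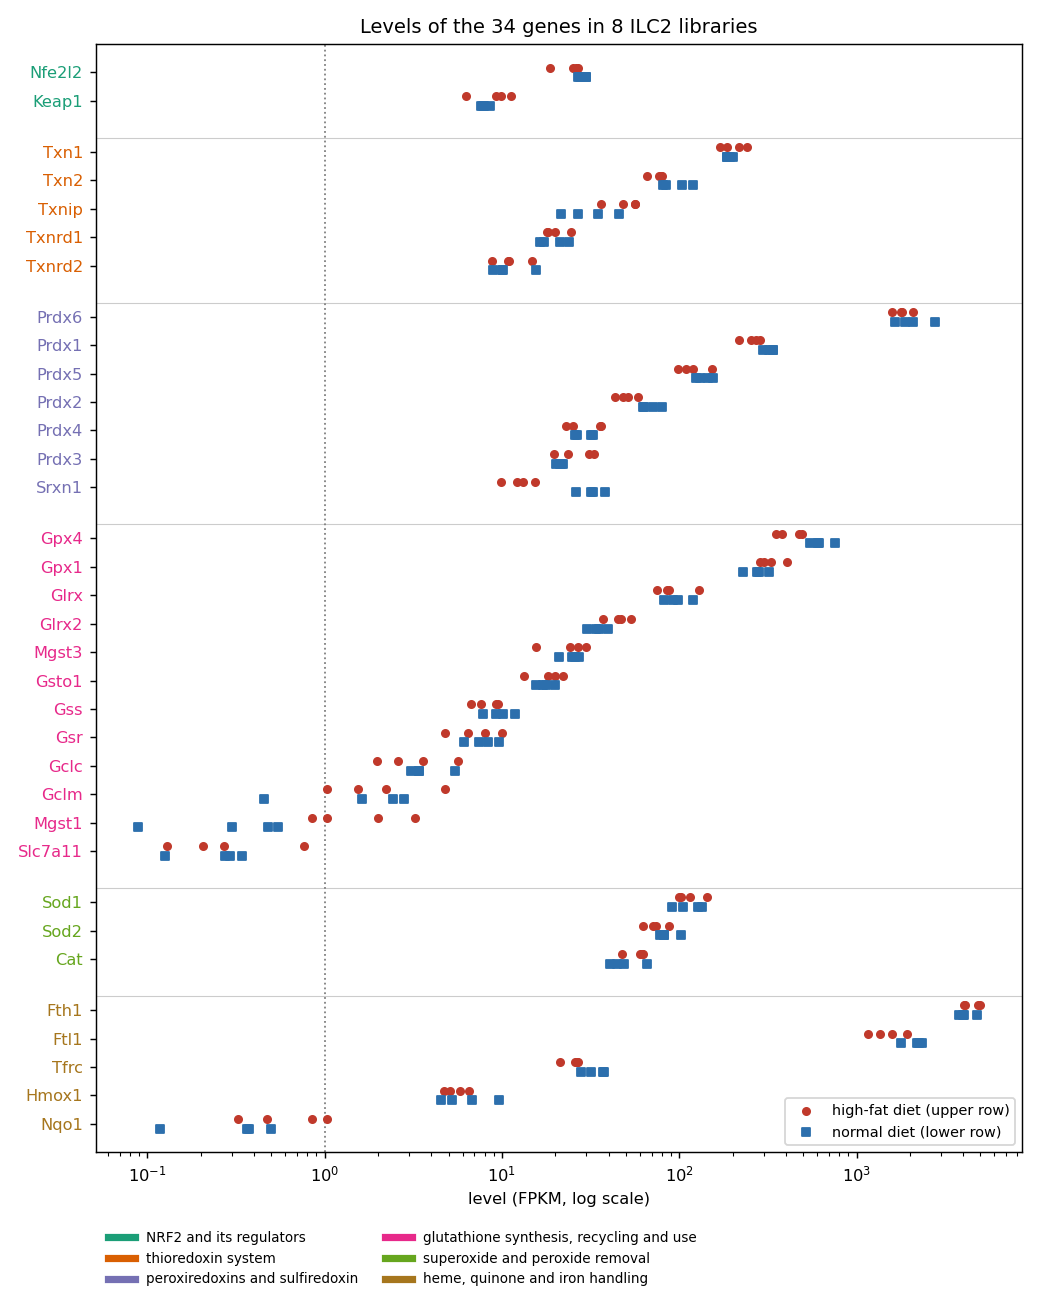
Level of each of the 34 genes (horizontal axis, FPKM on a log scale) in each library, with genes down the page by role, red circles for the 4 high-fat libraries above blue squares for the 4 normal-diet libraries. The dotted line marks 1 FPKM; Fth1, Prdx6 and Ftl1 lie above 1000 FPKM, and Slc7a11 lies below 1 FPKM in every library.

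Levels ran over more than 4 orders of magnitude. Fth1, the ferritin heavy chain, averaged 4492 ± 483 FPKM on high-fat diet and 4154 ± 429 FPKM on normal diet (SD, n = 4 each) and ranked 8 by level among the 11483 tested genes. Prdx6, a peroxiredoxin that uses glutathione, ranked 35, and Ftl1, the ferritin light chain, ranked 38. At the other end stood Gclc, Gclm, Mgst1, Nqo1 and Slc7a11, which were between 0.0882 and 5.63 FPKM in every library. Among the tested members the spread between libraries of the same diet was smallest for Prdx1 (pooled SD 0.14 on the log2 scale) and largest for Gclm (0.64).

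Sulfiredoxin (Srxn1, ENSMUSG00000032802, chr2:152105516-152111376, plus strand, mm10) is the enzyme that repairs peroxiredoxins whose catalytic cysteine has been over-oxidised. It stood at 9.90, 13.2, 12.2 and 15.3 FPKM in H1 to H4, against 32.0, 38.0, 32.5 and 26.2 FPKM in N1 to N4. The highest high-fat library lay well below the lowest normal-diet library. The means were 12.7 ± 2.26 FPKM on high-fat diet and 32.2 ± 4.84 FPKM on normal diet (SD, n = 4 each). Srxn1 fell by 1.28 on the log2 scale (standard error 0.17, 95% interval -1.64 to -0.93, limma adjusted p = 0.00187), which placed it 17 by size and 7 by p among the 216 genes called lower. Behind these values lay 273 to 543 reads per high-fat library and 847 to 1101 reads per normal-diet library. Without any 1 library the fold change stayed between -1.38 and -1.18 and was called each time (adjusted p 0.00063 to 0.00871). With the mean of the T cell markers as a covariate it was -1.12 with adjusted p = 0.0597, in a fit that called 13 genes in all (0.113%). With the mean of the mast cell markers, a covariate chosen after the data were seen, it was -1.31 (adjusted p = 0.000661), in a fit that called 5.4%.

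The 250 bases before the RefSeq start of Srxn1 are shown because it is the one member called. The stretch also holds the letters TGAGTCA, the consensus bound by AP-1 factors, in capitals. The sequence is from RefSeq (GRCm38.p6, which is mm10), chr2:152105274-152105523, plus strand. The RefSeq start, from which positions are counted, lies downstream of the GENCODE start in the coordinates above. The last bases shown are therefore within the gene by GENCODE.
Srxn1: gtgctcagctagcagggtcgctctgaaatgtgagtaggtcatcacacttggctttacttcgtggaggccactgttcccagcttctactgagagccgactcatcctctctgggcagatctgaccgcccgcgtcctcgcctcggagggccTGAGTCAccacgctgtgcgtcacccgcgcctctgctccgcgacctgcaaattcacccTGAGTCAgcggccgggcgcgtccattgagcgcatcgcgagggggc
TGAGTCA was searched on both strands after this sequence had been seen. It is present at -102 and -45 from the Srxn1 start, counted to the first base of the match on the plus strand, and in 5.202% of the 32851 promoter windows of the RefSeq table (250 bases before to 50 after each start). It is in 4 of the 42 windows of members (9.524%), which belong to 3 of the 30 members with a window: Srxn1, Prdx1 and Glrx. TGAGNNNGC, the core of the antioxidant response element (TGACNNNGC, described with the other promoters) with TGAG in place of TGAC, was also searched on both strands after the sequence had been seen. It matches Srxn1 at -158 on the other strand and at -45, where it overlaps the TGAGTCA, and it is in 17.65% of all windows and in 4 of the 42 windows of members (9.524%), those of Srxn1, Slc7a11, Prdx1 and Txn2.

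**Figure D2:**
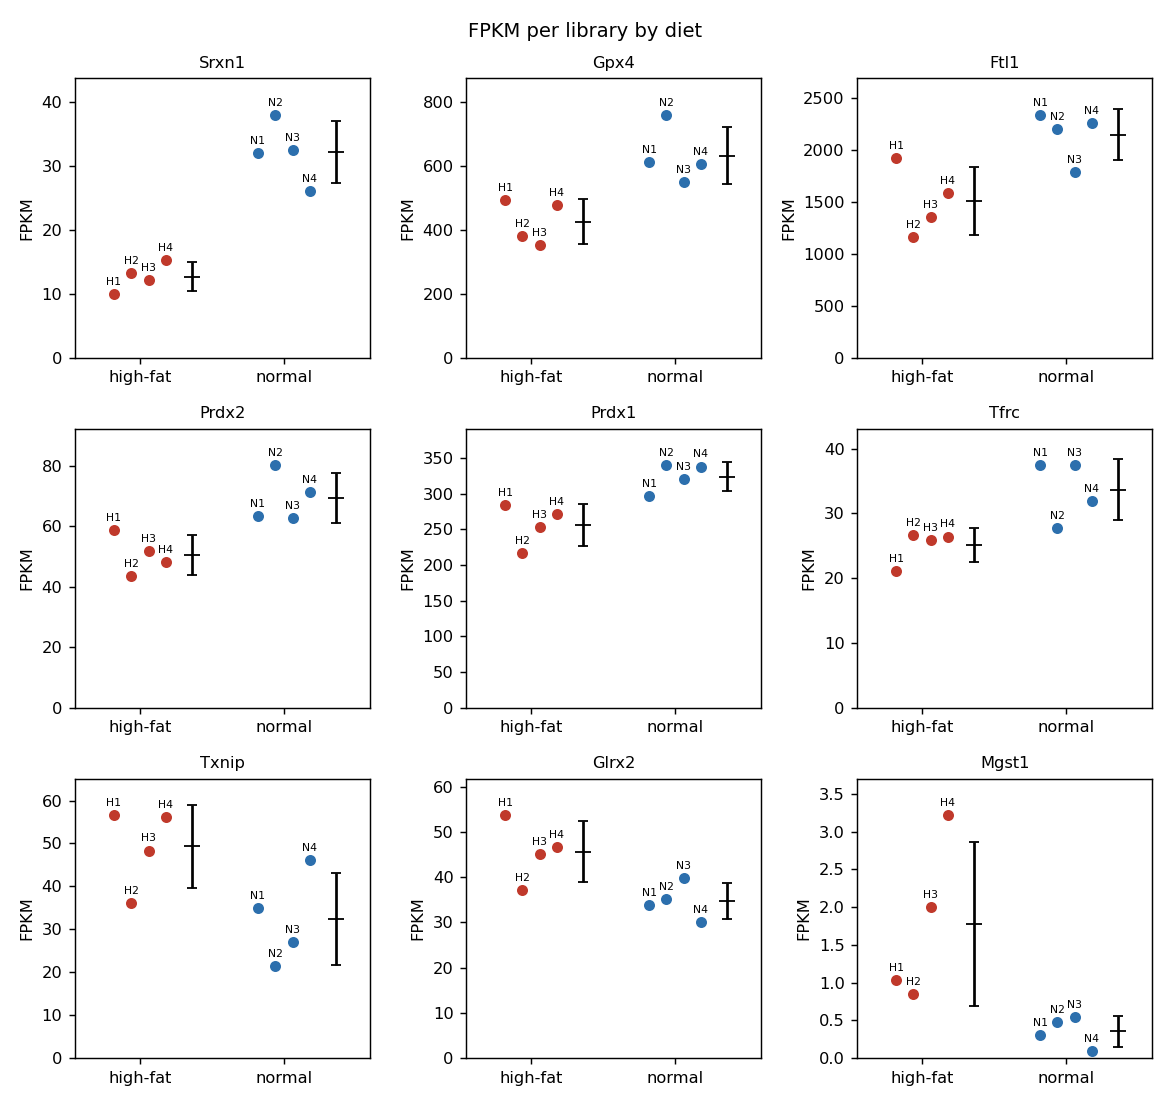
FPKM per library (vertical axis, from 0) of 9 members, with high-fat libraries in red on the left and normal-diet libraries in blue on the right of each panel, and mean ± SD beside each group (n = 4). Srxn1 shows the widest gap relative to its level, 9.90 to 15.3 FPKM on high-fat diet below 26.2 to 38.0 FPKM on normal diet.

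The substrates of sulfiredoxin are the typical 2-cysteine peroxiredoxins Prdx1 to Prdx4. Prdx1, the abundant cytosolic form, had 284, 217, 253 and 272 FPKM in H1 to H4, against 296, 340, 321 and 338 FPKM in N1 to N4. The groups did not overlap, though H1 and N1 were close, and Prdx1 did not pass (-0.34, adjusted p = 0.208). Prdx2, the other cytosolic form, had 58.8, 43.4, 51.7 and 48.1 FPKM in H1 to H4, against 63.4, 80.3, 62.7 and 71.5 FPKM in N1 to N4. Again every high-fat library was lower, and the fold change of -0.45 did not pass (adjusted p = 0.116). Prdx2 is abundant in red cells, and its 2 highest libraries were N2 and N4, with erythroid marker sums of 132 and 4485 FPKM; the part of red cell RNA in its values was not tested. Its gene overlaps Junb on the other strand, which stood at 8525 to 12160 FPKM, and this library type does not mark strand, so Prdx2 values may hold Junb reads. Junb itself did not pass (0.06, adjusted p = 0.878).

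Prdx3, in mitochondria, averaged 26.8 ± 6.33 FPKM on high-fat diet and 21.3 ± 0.904 FPKM on normal diet (0.29, adjusted p = 0.388), and Prdx4, in the endoplasmic reticulum, 29.96 ± 6.76 FPKM on high-fat diet and 29.2 ± 3.53 FPKM on normal diet (0.02, adjusted p = 0.973). Prdx5, an atypical form found in several organelles, averaged 120 ± 23.9 FPKM on high-fat diet and 139 ± 13.5 FPKM on normal diet (-0.22, adjusted p = 0.502). None of these 3 separated the diets. Prdx6 had 2089, 1792, 1588 and 1799 FPKM in H1 to H4, against 2089, 2777, 1877 and 1648 FPKM in N1 to N4, overlapping groups (-0.19, adjusted p = 0.611). It made up 77.1% to 81.7% of the summed FPKM of the 6 peroxiredoxins on high-fat diet and 73.5% to 81.9% on normal diet. Srxn1 measured against the peroxiredoxins it serves, a ratio computed after its fall was seen and not tested, was 2.40% to 4.35% of the summed Prdx1 to Prdx4 FPKM on high-fat diet and 5.63% to 8.12% on normal diet.

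**Figure D3:**
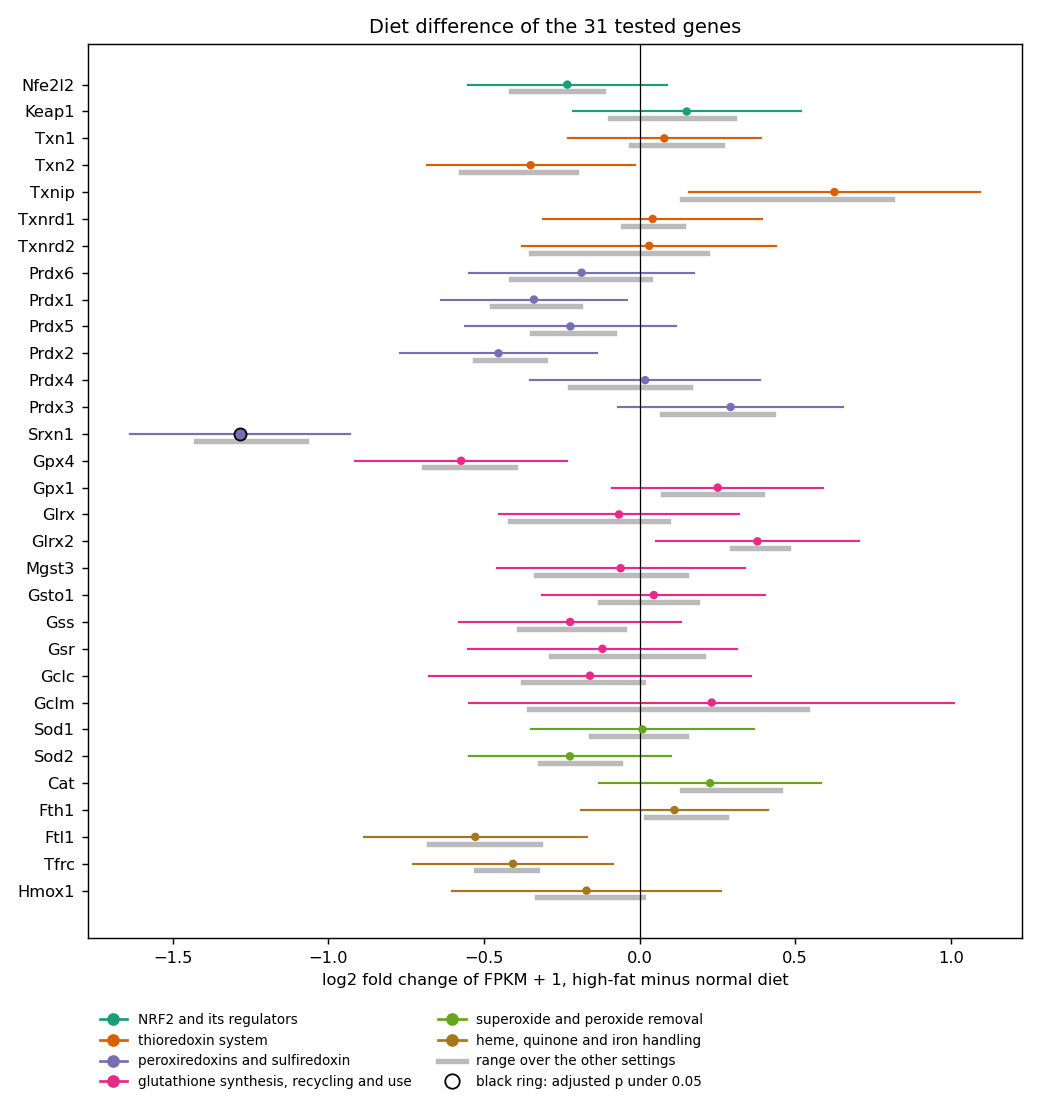
Diet difference of the 31 tested members (horizontal axis, log2 fold change of FPKM + 1, high-fat minus normal diet), with points for the fit, lines for 95% intervals and grey bars for the range over the other settings of the analysis. Srxn1, ringed in black at -1.28, is the one member with adjusted p under 0.05.

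Nfe2l2, which encodes NRF2, had 25.2, 18.8, 26.8 and 26.3 FPKM in H1 to H4, against 29.6, 26.9, 27.6 and 29.7 FPKM in N1 to N4. H3 at 26.8 and N2 at 26.9 FPKM nearly touched, so that the groups were just apart, and H2 stood below all others. The fold change was -0.23 and did not pass (standard error 0.15, adjusted p = 0.444). Keap1, its inhibitor, had 11.3, 6.27, 9.28 and 9.84 FPKM in H1 to H4, against 7.95, 7.63, 7.82 and 8.61 FPKM in N1 to N4. Here 3 high-fat libraries were above, and H2 below, all of the normal diet (0.15, adjusted p = 0.706). Within each library the log2 ratio of Nfe2l2 to Keap1 (FPKM + 1 of each) was 1.09, 1.44, 1.43 and 1.33 in H1 to H4, against 1.78, 1.69, 1.70 and 1.67 in N1 to N4. All high-fat ratios were lower, by 0.38 on average (standard error 0.09). An exact permutation test gave two-sided p = 0.0286, the smallest that 4 libraries against 4 allow, and 0.0571 after adjustment over the 4 ratios tested, which does not pass.

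No gene of the thioredoxin system passed the test, and 4 of its 5 fold changes were above 0. Txn1, cytosolic thioredoxin, had 242, 170, 187 and 218 FPKM in H1 to H4, against 202, 187, 186 and 193 FPKM in N1 to N4, with the high-fat libraries on both sides of the others (0.08, 95% interval -0.23 to 0.39, adjusted p = 0.832). Txn2, the mitochondrial form, had 79.5, 66.2, 78.9 and 77.0 FPKM in H1 to H4, against 81.4, 104, 84.0 and 120 FPKM in N1 to N4. The groups were apart by the small step between H1 and N1, and Txn2 did not pass (-0.35, adjusted p = 0.251). Txnip, which binds and inhibits thioredoxin and is known to be induced by glucose, had 56.6, 36.05, 48.3 and 56.2 FPKM in H1 to H4, against 34.8, 21.5, 27.0 and 46.0 FPKM in N1 to N4. H2 lay below N4, so the groups overlapped. Its fold change of 0.63 was the largest positive one among the 31, with a standard error of 0.22, and did not pass (adjusted p = 0.142). With the T cell markers as covariate it was 0.14 (adjusted p = 0.844), with the mast cell markers 0.71 (adjusted p = 0.0427). The log2 ratio of Txnip to Txn1 was -2.07, -2.21, -1.93 and -1.94 in H1 to H4, against -2.50, -3.06, -2.74 and -2.04 in N1 to N4. N4 stood among the high-fat libraries, and the difference of 0.55 had an exact two-sided permutation p of 0.0857 (0.114 adjusted over the 4 ratios). The reductases that recharge thioredoxin, Txnrd1 in the cytosol (0.04, adjusted p = 0.930) and Txnrd2 in mitochondria (0.03, adjusted p = 0.957), had intervals from -0.31 to 0.39 and from -0.38 to 0.44.

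Gpx4, the glutathione peroxidase that reduces lipid peroxides in membranes and prevents ferroptosis, was the most abundant gene of the glutathione group. It had 494, 379, 352 and 476 FPKM in H1 to H4, against 611, 759, 548 and 607 FPKM in N1 to N4. All 4 high-fat libraries lay below all 4 of the normal diet, with the nearest pair H1 and N3. The means were 425 ± 70.3 FPKM on high-fat diet and 631 ± 89.8 FPKM on normal diet, and the fold change of -0.57 (standard error 0.16) missed the threshold at adjusted p = 0.0687. The call depended on the setting. Leaving out 1 library at a time, 0 of 8 fits called Gpx4 (limma adjusted p 0.0655 to 0.211). Of the 13 other alternative settings 4 called it. With the T cell markers as covariate its adjusted p was 0.290. Gpx4 joined Srxn1 among the called members with equal library medians (adjusted p = 0.0311, where 4.15% of all genes were called), at a filter of 5 FPKM (0.0361, 6.29%) and with the repeating factor of the deposited values divided out (0.0297, 4.97%). On the recovered reads, limma-voom called 5 of 32 members, namely Srxn1, Gpx4 (0.0131), Ftl1, Tfrc and Txnip, against 5.54% of all genes. Gpx1, the cytosolic peroxidase for hydrogen peroxide, had the higher mean on high-fat diet without passing, with 330 ± 53.7 FPKM on high-fat diet and 276 ± 38.4 FPKM on normal diet (0.25, adjusted p = 0.436). Gpx4 as a share of Gpx1, computed after these values were seen and not tested, was 107% to 167% on high-fat diet and 188% to 332% on normal diet.

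Glutathione is made from cysteine, glutamate and glycine by glutamate-cysteine ligase, whose catalytic and modifier subunits are Gclc and Gclm, and then by Gss. Gclc had 5.63, 1.98, 3.58 and 2.61 FPKM in H1 to H4, against 5.41, 3.39, 3.08 and 3.43 FPKM in N1 to N4 (-0.16, adjusted p = 0.795). Gclm had 1.54, 4.78, 2.21 and 1.03 FPKM in H1 to H4, against 2.44, 0.456, 2.81 and 1.63 FPKM in N1 to N4 (0.23, adjusted p = 0.801). Both sets overlapped, and Gclm rests on 9 to 75 reads per library. H2 held the highest Gclm and the lowest Gclc, which gave it a log2 ratio of Gclm to Gclc of 0.96, against -1.39, -0.51 and -0.83 in H1, H3 and H4 and -0.90, -1.59, -0.10 and -0.75 in N1 to N4. The mean difference of 0.39 was far from passing (exact two-sided permutation p = 0.571) and became -0.08 without H2.

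Of the remaining tested genes of the group, Gss was at 8.26 ± 1.32 FPKM on high-fat diet and 9.82 ± 1.69 FPKM on normal diet (-0.22, adjusted p = 0.524), and Gsr, which regenerates reduced glutathione, at 7.32 ± 2.22 FPKM on high-fat diet and 7.89 ± 1.501 FPKM on normal diet (-0.12, adjusted p = 0.819). Glrx2, a mitochondrial glutaredoxin that removes glutathione from proteins, averaged 45.6 ± 6.81 FPKM on high-fat diet and 34.8 ± 4.04 FPKM on normal diet. Of the high-fat libraries only H2, at 37.1 FPKM, lay within the normal-diet range, whose top was N3 at 39.9 FPKM, and the fold change of 0.38 did not pass (adjusted p = 0.201). The cytosolic glutaredoxin Glrx (-0.07), the glutathione transferase Gsto1 (0.05) and the microsomal transferase Mgst3 (-0.06) had adjusted p of 0.892 to 0.926 and overlapping libraries.

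Mgst1 and Slc7a11 of the glutathione group, and Nqo1, did not reach 1 FPKM in 4 libraries and had no part in the fit. Mgst1, a microsomal glutathione transferase, had 1.03, 0.845, 2.01 and 3.22 FPKM in H1 to H4, against 0.301, 0.480, 0.543 and 0.0882 FPKM in N1 to N4. Every high-fat library was higher, by 0.97 on the log2 scale (exact two-sided permutation p = 0.0286, the smallest possible, unadjusted), on 7 to 43 reads in high-fat libraries and 1 to 5 in normal-diet libraries. Endothelial and macrophage marker sums were also higher in every high-fat library, though the macrophage marker Adgre1 was lower in every one. The part of these cells in the Mgst1 value was not tested. Slc7a11, the cystine importer, was at 0.130 to 0.763 FPKM on high-fat diet and 0.126 to 0.344 FPKM on normal diet (0.07, exact permutation p = 0.83). Nqo1, a quinone reductase, was at 0.323 to 1.03 FPKM on high-fat diet and 0.117 to 0.497 FPKM on normal diet (0.30, exact permutation p = 0.2).

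The superoxide dismutases and catalase did not separate the diets. Sod1, the cytosolic dismutase, had 143, 99.9, 102 and 114 FPKM in H1 to H4, against 134, 91.0, 105 and 127 FPKM in N1 to N4, and the ranges nearly coincided (0.01, 95% interval -0.35 to 0.37, adjusted p = 0.985). Sod2, the mitochondrial one, averaged 73.8 ± 10.4 FPKM on high-fat diet and 86.2 ± 11.1 FPKM on normal diet (-0.22, adjusted p = 0.474). Catalase (Cat), which breaks down hydrogen peroxide in peroxisomes, averaged 57.8 ± 6.75 FPKM on high-fat diet and 49.8 ± 10.9 FPKM on normal diet (0.23, adjusted p = 0.519).

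Iron enters lymphocytes through the transferrin receptor (Tfrc) and is stored in ferritin, a shell of heavy chains, which oxidise iron, and light chains, which help it mineralise. Fth1 had 4992, 4103, 4056 and 4819 FPKM in H1 to H4, against 4776, 4064, 3981 and 3796 FPKM in N1 to N4, overlapping groups (0.11, adjusted p = 0.738). Ftl1 had 1920, 1165, 1350 and 1586 FPKM in H1 to H4, against 2336, 2196, 1787 and 2262 FPKM in N1 to N4. H1 alone reached into the range of the normal diet, above N3, and the fold change of -0.53 did not pass (standard error 0.17, adjusted p = 0.108). The light chain stood at 38.5%, 28.4%, 33.3% and 32.9% of the heavy chain FPKM in H1 to H4, against 48.9%, 54.0%, 44.9% and 59.6% in N1 to N4. These shares did not overlap. They were computed after the values of both chains had been seen and were not tested.

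Tfrc had 21.2, 26.7, 25.9 and 26.4 FPKM in H1 to H4, against 37.5, 27.8, 37.4 and 32.0 FPKM in N1 to N4. Every high-fat library was lower, with N2 only just above H2, and the fold change was -0.41 (standard error 0.15, adjusted p = 0.166). Iron regulatory proteins are known to stabilise the Tfrc transcript and to block translation of the ferritin transcripts when iron is scarce. The log2 ratio of Tfrc to Fth1 was -7.82, -7.21, -7.24 and -7.46 in H1 to H4, against -6.96, -7.14, -6.70 and -6.85 in N1 to N4. All high-fat ratios were lower, by 0.52 on average (standard error 0.17, exact two-sided permutation p = 0.0286, 0.0571 adjusted over the 4 ratios), which does not pass. Hmox1, the inducible heme oxygenase that frees iron from heme, averaged 5.53 ± 0.810 FPKM on high-fat diet and 6.55 ± 2.27 FPKM on normal diet (-0.17, adjusted p = 0.722).

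**Figure D4:**
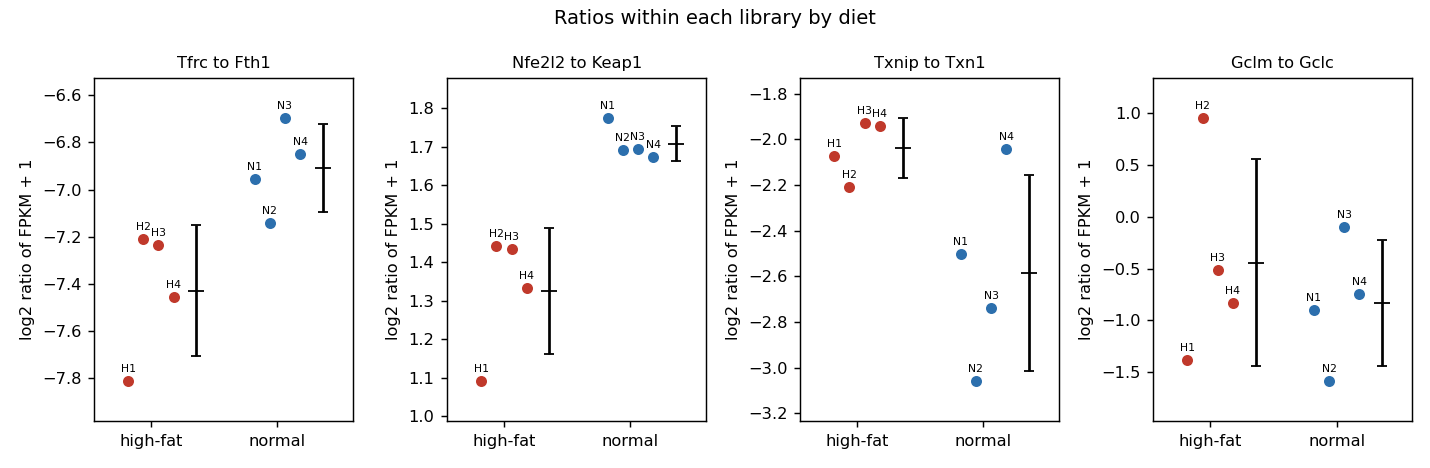
Log2 ratio of FPKM + 1 of 2 members within each library (vertical axis, a separate scale for each panel), high-fat libraries in red on the left and normal-diet libraries in blue on the right, with mean ± SD (n = 4 each). The Tfrc to Fth1 and Nfe2l2 to Keap1 ratios of all high-fat libraries lie below all normal-diet ratios, while the other panels overlap.

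Libraries of the same diet also differed from one another across many members. H2 was the lowest high-fat library in 21 of the 31 tested members and H1 the highest in 23, whereas on normal diet no library was lowest in more than 9 or highest in more than 10. H2 also had the fewest reads, and the lowest mast cell marker sum. Srxn1 and Tfrc went against this order, with H1 the lowest high-fat library in both.

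Level and fold change were also related across all tested genes. The median log2 fold change was 0.06 for the 5864 genes with a mean under 10 FPKM, -0.07 for the 4658 genes from 10 to 100 FPKM and -0.16 for the 961 genes at 100 FPKM or more, and 0.65%, 2.58% and 6.04% of these were called lower. Members followed no such steps, with medians of -0.14 (6 genes), -0.02 (16 genes) and -0.19 (9 genes). Gpx4, Prdx1 and Ftl1 belong to the most expressed class. Quantile normalization, which brought the medians of the 3 classes to 0.01 or less in size, gave fold changes of -0.40 for Gpx4, -0.19 for Prdx1 and -0.32 for Ftl1, without a call, and of -1.22 for Srxn1 with adjusted p = 0.00164.

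**Figure D5:**
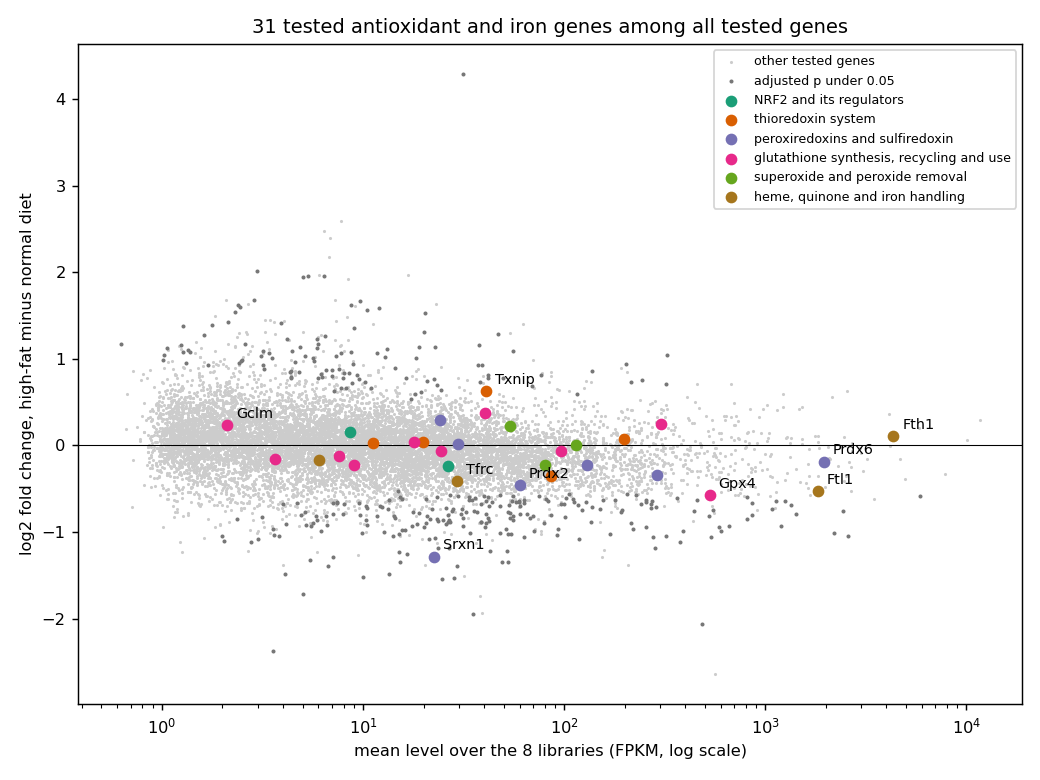
Log2 fold change of FPKM + 1, high-fat minus normal diet (vertical axis), against mean level over the 8 libraries (horizontal axis, FPKM on a log scale) for the 11483 tested genes, in grey, with the 31 tested members coloured by role and darker grey for genes with adjusted p under 0.05. Srxn1 at -1.28 lies below the bulk of genes of its level, and the other members lie within it.

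Genes that work with the members were taken from a list of 103, all found and 94 tested, covering NRF2 partners, further thioredoxin, glutathione and iron genes, NADPH supply, selenoproteins and the NADPH oxidase. High-fat diet raised 1 and lowered 2 of the 94, and 91 did not pass, a share close to the background given above; their median fold change was -0.09. Mafg, a small MAF partner of NRF2, averaged 39.9 ± 5.12 FPKM on high-fat diet and 71.3 ± 9.43 FPKM on normal diet (-0.82, limma adjusted p = 0.0104). G6pdx, the enzyme that opens the pentose phosphate pathway and so supplies NADPH, fell to 18.3 ± 0.738 FPKM on high-fat diet, against 28.2 ± 3.71 FPKM on normal diet (-0.59, adjusted p = 0.0407). Ucp2, a mitochondrial carrier that limits superoxide production, rose to 436 ± 102 FPKM on high-fat diet, against 210 ± 50.9 FPKM on normal diet (1.05, adjusted p = 0.0126). All 3 showed no overlap between the diets. Leaving out 1 library at a time, the call of Mafg held each time (adjusted p up to 0.0457), that of Ucp2 ended without H3 or H4 (up to 0.0529) and that of G6pdx held only without H2 or N3 (up to 0.105 in the others). With the T cell markers as covariate none of the 3 was called (Mafg 0.134, G6pdx 0.162, Ucp2 0.246), nor without both N3 and N4 (0.0554, 0.0932 and 0.0537 in the same order).

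Among the most expressed genes of these lists, Sqstm1, which encodes the autophagy receptor p62 and can displace NRF2 from KEAP1, had 671 ± 85.0 FPKM on high-fat diet and 1154 ± 369 FPKM on normal diet, with no overlap, and just missed the threshold (-0.74, adjusted p = 0.0534). The others were not near it: the thioredoxin-like Txndc17 (0.28), Slc3a2, the partner chain of Slc7a11 (0.00), the iron-sulfur scaffold Iscu (-0.17), the pentose phosphate enzyme Taldo1 (-0.05), the selenoprotein Selenok (-0.23) and the NADPH oxidase GTPase Rac2 (-0.28) had adjusted p of 0.322 to 0.997. By list, the calls were 1 lower of 10 NRF2 partners, 1 lower of 11 NADPH genes and 1 higher of 5 superoxide and peroxide genes, and 0 of 14 thioredoxin, 17 glutathione, 19 iron and heme, 13 selenoprotein and 5 NADPH oxidase genes.

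The antioxidant response element is the DNA motif to which NRF2 and small MAF proteins bind, and its core TGACNNNGC (N is any base) was searched on both strands of the RefSeq promoter windows. Hmox1, Gclc, Gsr and Prdx6 had no window in the table. The core is in 12.39% of all 32851 windows and in 7 of the 42 windows of members (16.67%), each from a different gene. The matches are shown with their surroundings to set them beside the values above; capitals mark the 9 bases of the core, written on the strand of the gene, so that a match on the other strand appears as its reverse complement.
Nfe2l2: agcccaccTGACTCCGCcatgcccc
Srxn1: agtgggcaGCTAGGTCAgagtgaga
Gclm: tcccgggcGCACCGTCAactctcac
Prdx1: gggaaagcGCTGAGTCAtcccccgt
Mgst1: ggggcttgGCACGGTCAggaggcgg
Txnrd1: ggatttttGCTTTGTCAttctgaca
Sod1: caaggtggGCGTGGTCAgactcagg
Counted to the first base in capitals, with the start itself as 1, these lie at -240, 29, -134, -133, -56, -92 and -56 from the start, in the order given, and at Prdx1 the core overlaps a TGAGTCA. In coordinates of GRCm38.p6 the printed stretches are chr2:75704887-75704911 (minus strand) for Nfe2l2, chr2:152105544-152105568 for Srxn1, chr3:122245415-122245439 for Gclm, chr4:116685458-116685482 for Prdx1, chr6:138140463-138140487 for Mgst1, chr10:82859106-82859130 for Txnrd1 and chr16:90220698-90220722 for Sod1, all but the first on the plus strand. In the same order, the diet differences of these 7 genes on the log2 scale were -0.23, -1.28, 0.23, -0.34, 0.97, 0.04 and 0.01. Only Srxn1 was called. Mgst1 had no part in the fit, and Mgst1 and Gclm rest on few reads. Txnrd1 and Sod1 each changed sign in 7 of the other settings, so these values do not settle whether the genes share a direction. A match is a description of letters in these windows and says nothing of binding in these cells.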

How the data were processed

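RNA of sorted VAT ILC2s was measured in 8 libraries, 4 on high-fat and 4 on normal diet. Per the labels' protocols, cDNA came from the SMART-Seq HT kit and libraries from a transposase kit that does not mark strand. HISAT2, Cufflinks and the build mm10 are named in the submitters' processing notes. The deposited values are FPKM, per the file headers, though not plain FPKM: 14605 of 39527 genes hold values below 0 (none is a member), and each value carries 1 of 10 factors (0.863 to 1.18) that repeat every 10 rows. With these, whole reads were recovered for 100% of 24107 genes above 0 (relative tolerance 1e-06); overlapping genes (Prdx2 with Junb and Rnaseh2a, Gss with Acss2, Prdx5 with Trmt112, Keap1, Gclm and Txnip with noncoding transcripts) may share them.

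Genes at 1 FPKM or more in at least 4 libraries and never below 0 were tested on log2(FPKM + 1) with limma 3.58.1 in R 4.3.3 (trend, robust, diet as the only term, two-sided, Benjamini-Hochberg). Ratios and members under the filter had exact permutation tests (SciPy 1.17.1). The code was tested on simulated data. The 34 genes and all lists were chosen with earlier results of these data known. Values per library are given for members that were called, had no overlap or had adjusted p under 0.2, for the most expressed of each group and for the ratios; other pathway genes are named when called or the most expressed of a list. Gene coordinates are from GENCODE M21 by gene identifier.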

Additional observations from a re-analysis of the deposited data

Results flagged for a closer look

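A library far from the other 3 of its diet was looked for in each member and ratio, and 2 of 76 groups held one, where chance gives about 1 in 20 (5%). Catalase was low in H2, at 47.8 FPKM, while the other high-fat libraries held 59.9 to 62.2 FPKM. Tfrc was low in H1, at 21.2 FPKM, while the other high-fat libraries held 25.9 to 26.7 FPKM. Without H1 the fold change of Tfrc was -0.33 (limma adjusted p = 0.326), and without H2 that of catalase was 0.31 (adjusted p = 0.319).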

How the results depend on the processing

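The number of genes called, 328 as reported, was 130 without the filter on low values, 571 with the repeating factor divided out, 760 by limma-voom on recovered reads, 13 with the T cell marker mean as covariate, 620 with that of the mast cell markers and 123 without both N3 and N4 (the last 2 were chosen after the data were seen). Without 1 library at a time it was 129 to 536, with the highest count without H2. Under quantile normalization 226 genes were higher and 204 lower. Of the members, 2 were called at a filter of 5 FPKM, at equal library medians, with the factor divided out and with the mast cell covariate, 5 by limma-voom (Srxn1, Gpx4, Ftl1, Tfrc and Txnip) and 0 with the T cell covariate. In every setting with a call Srxn1 was called, always lower. Of the other pathway genes, 3 as reported, 1 was called without the filter, 5 at 5 FPKM, 5 with the factor divided out, 6 by limma-voom, 0 with the T cell covariate, 5 with the mast cell covariate, 0 without both N3 and N4 and 1 to 4 without 1 library.

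The Tfrc to Fth1 difference was -0.60 to -0.39 without 1 library and -0.67 without both H2 and N2; that of Nfe2l2 to Keap1 was -0.42 to -0.31 and -0.43. Their exact permutation p was then 0.0571 and 0.1, the smallest those designs allow. Txnip to Txn1 was 0.59 with the factor divided out (exact permutation p = 0.0286). Same-numbered libraries of the 2 diets correlated at -0.255 to 0.0783 in their deviations, so the numbers do not pair them. With the replicate number as a block 191 genes were called, Srxn1 kept its call (adjusted p = 0.0114), G6pdx lost its own (0.108), and the Tfrc to Fth1 and Nfe2l2 to Keap1 differences of -0.52 and -0.38 had exact p = 0.125, the smallest for 4 pairs. Mgst1, Gclm, Nqo1 and Slc7a11 rest on few reads (1 to 75 per library), which limits what can be said of them. The causes of these changes were not tested.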

Other observations

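Selenoproteins carry selenocysteine, as the glutathione peroxidases Gpx1 and Gpx4 and the thioredoxin reductases do at their active site. Of the 13 tested selenoprotein and selenocysteine synthesis genes outside the 34, none was called, while 3 were lower and 1 higher at an unadjusted p under 0.05 (limma). Of all 11483 tested genes, 1259 were lower and 824 higher at that cut. Chosen after their values were seen, Selenos, a membrane protein of endoplasmic reticulum protein disposal, averaged 73.9 ± 8.75 FPKM on high-fat diet and 119.8 ± 32.0 FPKM on normal diet (-0.66, adjusted p = 0.0756). Selenon, a reductase of the endoplasmic reticulum, had 0.951 to 1.44 FPKM on high-fat diet and 1.78 to 3.91 FPKM on normal diet, without overlap (-0.69, adjusted p = 0.104). Selenom, another protein of that compartment, stood at 4.24 ± 1.28 FPKM on high-fat diet and 2.20 ± 0.613 FPKM on normal diet (0.69, adjusted p = 0.104). Cyba, a membrane subunit of the NADPH oxidase, averaged 730 ± 144 FPKM on high-fat diet and 918 ± 35.97 FPKM on normal diet (-0.35, adjusted p = 0.250), whereas its catalytic partner Cybb stayed under 1 FPKM in every library.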
